A study of Mus musculus and Rattus norvegicus with 18 samples.

Results

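Mouse primary tubular epithelial cells (TECs) kept in medium without added agents were set against NRK49F rat kidney fibroblasts kept in the same way. The comparison took 6 of the 18 libraries of the series, 3 of control TECs and 3 of control NRK49F. Genes were matched between the species by symbol: 15957 symbols, compared without regard to capitals, occurred exactly once in the mouse values (22322 entries) and once in the rat values (22050 entries), and 11687 of these had enough counts to be tested. TECs are cells isolated from mouse kidney and grown in culture for the study, and neither the strain and age of the mice nor whether the 3 libraries came from separate animals is stated. NRK49F is 1 established fibroblast line of normal rat kidney, so its 3 libraries are replicates of 1 line. Both kinds were grown in DMEM/F12 with 10% fetal bovine serum and were moved to serum-free medium 6 h before the treatment period. The control wells of both received neither TGF-β1 nor narciclasine. The study itself asked how narciclasine, an alkaloid of daffodil bulbs, acts on cells given TGF-β1, and its other groups received 5 ng/ml TGF-β1 for 24 h with or without 20 nM narciclasine. Cell kind and species go together in these libraries and cannot be told apart: every difference below is one between mouse TECs and rat NRK49F.

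Tubular epithelium is a polarised sheet of cells sealed by tight junctions and held together by E-cadherin, with keratin filaments inside and a basement membrane of type IV collagen and laminin below. Interstitial fibroblasts lie between the tubules, carry PDGF receptors and deposit fibrillar collagens, fibronectin and proteoglycans. In cultured cells these programmes are not exclusive, since tubular cells in a dish can take up wound-repair and cytoskeletal genes and immortal fibroblast lines can lose markers of the tissue they came from.

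The control TEC libraries held 16652016 to 25192716 counts and the control NRK49F libraries 14818642 to 15503662 counts, of which matched genes took 92.9% to 93.0% in TECs and 91.8% to 92.2% in NRK49F. Mitochondrially encoded genes took 4.32% to 4.60% of the counts in TECs and 2.85% to 3.01% in NRK49F. The 3 TEC libraries lay close together, with a chi-square per degree of freedom of 1.76 to 2.31 between pairs. Among NRK49F, replicates 1 and 3 gave 2.20, but replicate 2 gave 19.5 against either of them, so this library stood apart. CCN2, a matricellular protein induced by TGF-β and by stretch, shows the pattern: Ccn2 had 1412, 1441 and 1404 CPM in TECs and 90.4, 281 and 88.5 CPM in NRK49F. CPM, the usual depth-scaled counts, are scaled here to the matched genes of the 6 libraries. Calls lost and list counts that moved by over 1.5 times without NRK49F replicate 2 are named where they occur; other list counts moved by at most 2 genes.

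At an adjusted p under 0.05 in edgeR's quasi-likelihood test, 10334 of 11687 genes (88.4%) differed, so the p alone separates few genes here. A gene was therefore called higher or lower when it also differed at least 4-fold, a log2 difference of 2. By this rule 2449 genes (21.0%) were higher in TECs and 1161 (9.93%) were lower, 30.9% in either direction, and these shares are the background for every list below. The median log2 difference over all tested genes was 0.15, with quartiles of -0.79 and 1.51. Libraries of the 2 kinds did not overlap for 10464 of the 11687 tested genes, so a lack of overlap separates few genes either. Without NRK49F replicate 2 the counts were 2611 higher and 1156 lower. The replicates are labelled biological without a word on how they were obtained, so each p-value refers only to the variation among these 6 libraries. In bulk libraries fewer cells of a type and less RNA per cell cannot be told apart.

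Genes that every cell uses give the differences seen outside the cell type programmes. Of 65 tested proteasome, aminoacyl-tRNA synthetase and RNA polymerase II or Mediator genes, 53 (81.5%) passed the p alone and 4 (6.15%) passed the 4-fold rule as well. Their median log2 difference was 0.15, with quartiles of -0.25 and 0.68. The extremes were Med8, a Mediator subunit, with 39.7 ± 1.64 CPM in TECs and 1.66 ± 0.160 CPM in NRK49F, and Polr2e, a polymerase subunit, with 39.0 ± 1.42 and 194 ± 17.3 CPM (mean ± SD, n = 3 each). Zeros in the rat values need a limit of their own. Of 72 matched ribosomal protein genes, 7 had no count in any of the 9 NRK49F libraries, among them Rpl8 with 635 ± 6.57 CPM in TECs, and 0 had no count in the 9 TEC libraries. In all, 728 of the genes called higher had no count in the control NRK49F libraries and 449 had none in all 9, against 51 and 26 of the genes called lower that had none in TECs. A gene without counts in NRK49F is therefore described as listed at 0, its fold change is given as a bound set by 3 counts over the group, and how far the rat annotation contributes was not tested. The same limit holds for genes with at most 3 counts over the control NRK49F libraries, including those with a printed ratio. Leaving out genes never counted in 1 of the species, an alternative chosen after seeing the data, gave 2000 higher and 1135 lower.

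**Figure D1:**
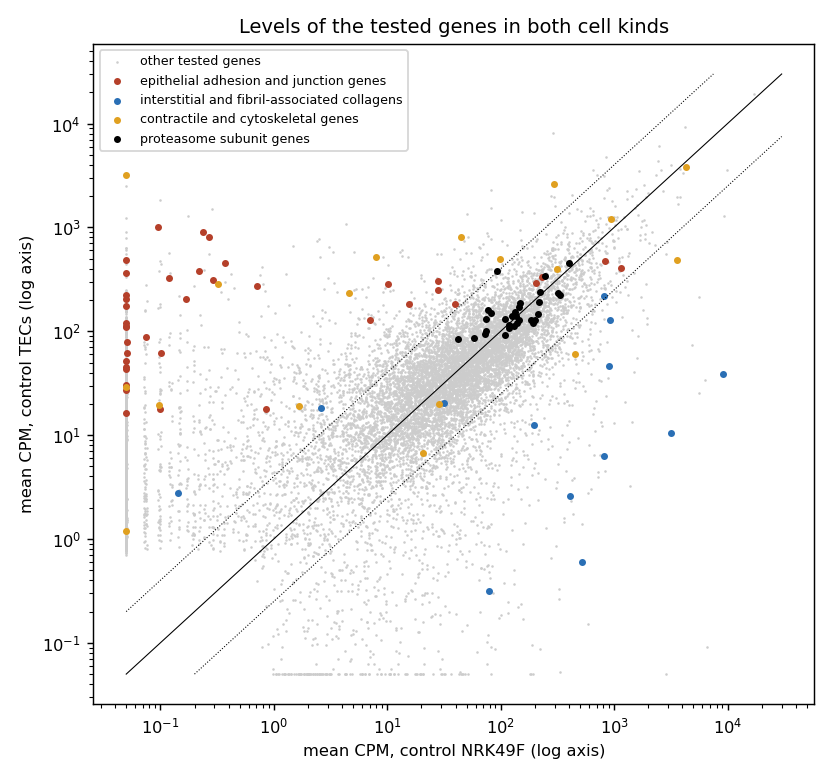
Mean CPM of each tested gene in control NRK49F (horizontal, log axis) and control TECs (vertical, log axis), with values under 0.05 drawn at 0.05; the solid line marks equal levels and the dotted lines 4-fold differences. Proteasome genes (black) lie along the solid line, junction genes (red) mostly in the upper left, interstitial collagens (blue) mostly in the lower right, and contractile genes (yellow) mostly above the line.

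Epithelial and collagen markers differed in the direction of the labels, although Krt8 differed by less than 4-fold. Cdh1, which encodes E-cadherin of the adherens junction, had 903, 898 and 911 CPM in TECs, against 0.284, 0 and 0.435 CPM in NRK49F. Epcam, an epithelial surface adhesion molecule, had 321, 329 and 322 CPM in TECs, against 0.355, 0 and 0 CPM in NRK49F. The groups did not overlap for either gene, and each had at least 1 NRK49F library without a count. The log2 differences were 11.81 for Cdh1 (SE 0.190, edgeR adjusted p = 2.6e-11) and 11.29 for Epcam (SE 0.230, edgeR adjusted p = 1.44e-10). Col1a1, the α1 chain of type I collagen, had 38.5, 38.2 and 40.4 CPM in TECs, against 8336, 10214 and 8659 CPM in NRK49F. Col3a1, the chain of type III collagen, had 9.77, 11.1 and 10.6 CPM in TECs, against 3066, 3296 and 3086 CPM in NRK49F. Both collagens were lower in every TEC library than in any NRK49F library, with log2 differences of -7.86 for Col1a1 (SE 0.0999, edgeR adjusted p = 2.07e-12) and -8.22 for Col3a1 (SE 0.0751, edgeR adjusted p = 6.32e-13). In the mouse genome (GRCm38, GENCODE M21) these genes lie at chr8:106603351-106670246 on the plus strand (Cdh1), chr17:87635979-87651129 on the plus strand (Epcam), chr11:94936224-94953042 on the plus strand (Col1a1) and chr1:45311538-45349706 on the plus strand (Col3a1).

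**Figure D2:**
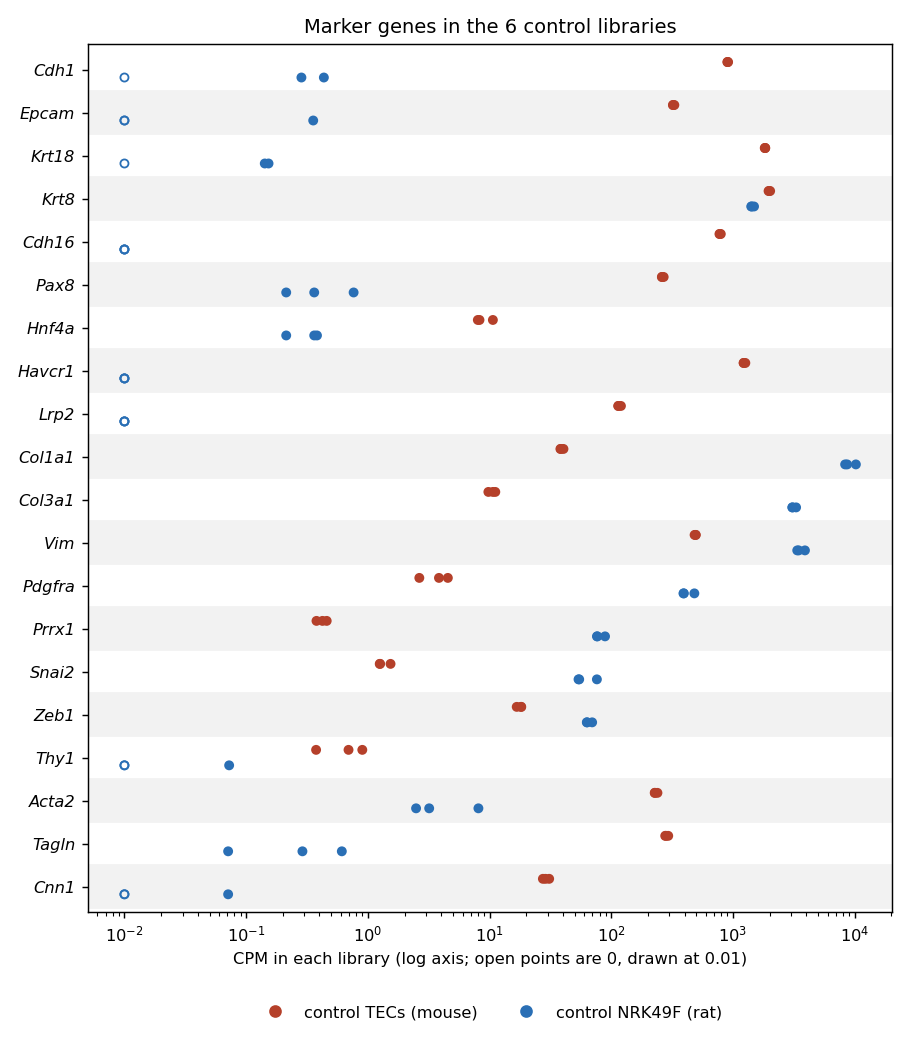
CPM of 20 marker genes in each of the 3 control TEC (mouse, red) and 3 control NRK49F (rat, blue) libraries on a log axis; open points are 0 and drawn at 0.01. Epithelial and nephron genes lie more than 4-fold apart except Krt8, the collagens lie on the NRK49F side, and Acta2, Tagln and Cnn1 lie on the TEC side.

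Junction genes were higher in TECs nearly throughout. Of 40 epithelial adhesion and junction genes, 39 were matched, and all 39 were tested. Of these, 35 were higher in TECs, 0 were lower and 4 were not called, where the background was 21.0% higher. The list was chosen with earlier results of these data known, so its count is a description. The median log2 difference of the 39 genes was 10.18, or 10.03 with genes listed at 0 set to their bounds. Claudins, the tight-junction strand proteins that set the permeability of each tubule segment, included some of the largest differences. Cldn4, a claudin of the distal nephron, had 1017, 988 and 1019 CPM in TECs, against 0.0711, 0 and 0.217 CPM in NRK49F, a log2 difference of 13.23 (SE 0.161). Cldn1 had 473, 487 and 491 CPM in TECs, against 1 count over the 3 NRK49F libraries, a ratio of 19843 (95% counting interval 3561 to 783777; such intervals and the bounds cover counting error only, since reads without molecular identifiers are not independent molecules). Cldn3 and Cldn7 averaged 119.6 and 204 CPM in TECs and were listed at 0 in NRK49F, at least 1630.1-fold and 2775-fold higher. Cgnl1, which encodes paracingulin of the junctional plaque, had 799, 795 and 809 CPM in TECs and 0.142, 0.229 and 0.435 CPM in NRK49F, a log2 difference of 11.50 (SE 0.121).

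Among the junction genes that were not called are some that encode plaque proteins, which link junctions to the cytoskeleton. Tjp1, the scaffold ZO-1, had 474, 478 and 478 CPM in TECs and 888, 716 and 887 CPM in NRK49F. Jup, plakoglobin of desmosomes and adherens junctions, had 405, 394 and 413 CPM in TECs and 1148, 1125 and 1159 CPM in NRK49F. For both, the TEC libraries were below all NRK49F libraries, with log2 differences of -0.80 and -1.50, short of the 4-fold rule. Dsp, desmoplakin, averaged 329 CPM in TECs, against 229.6 CPM in NRK49F. Ocln, occludin of tight junctions, had 87.7 ± 2.83 CPM in TECs and 0.0751 ± 0.0764 CPM in NRK49F, and Dsg2, a desmosomal cadherin, had 174 ± 4.87 and 0.0479 ± 0.0415 CPM. The summed level of the list was 9773 to 9925 CPM in TECs and 2442 to 2593 CPM in NRK49F, and 29 of the 39 genes averaged under 1 CPM in NRK49F, against 0 in TECs.

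Keratins 8 and 18 are the partner filament proteins of simple epithelia, and their counts came apart in NRK49F. Krt18 had 1839, 1837 and 1822 CPM in TECs, against 0.142, 0.153 and 0 CPM in NRK49F. Krt8 had 1958, 1979.6 and 2018 CPM in TECs, against 1411, 1487 and 1425 CPM in NRK49F. The TEC libraries were above the NRK49F libraries for both genes, with log2 differences of 14.09 for Krt18 (SE 0.148, edgeR adjusted p = 8.59e-13) but of 0.46 for Krt8 (SE 0.0444, edgeR adjusted p = 3.01e-06), which is under the 4-fold rule. Krt8, a marker meant to separate the kinds, thus differed by less than 4-fold. Counts could be shared between near-identical keratin copies, which was not tested. How far the rat annotation contributes to the low Krt18 counts in NRK49F was not tested either. Per kb of exon, the TEC levels were 1275 ± 6.55 for Krt18, 1014 ± 15.4 for Krt8, 215 ± 1.20 for Krt7 and 174 ± 3.79 CPM per kb for Krt19 (mean ± SD, n = 3).

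The mouse sequences just upstream of Krt18, Krt8, Epcam and Col3a1 are shown because these genes give the paired keratins and both sides of the marker comparison, and because the zinc-finger repressors described further on, of the Snail and ZEB families, are known to bind the letters CACCTG. Each is the 250 bases before the RefSeq gene start (GRCm38.p6) on the gene's strand, at chr15:102027966-102028215 (Krt18, plus strand), chr15:102004343-102004592 (Krt8, minus strand), chr17:87635729-87635978 (Epcam, plus strand) and chr1:45311288-45311537 (Col3a1, plus strand). Capitals mark CACCTG on either strand, which reads CAGGTG when it lies on the other, the single motif searched.
Krt18: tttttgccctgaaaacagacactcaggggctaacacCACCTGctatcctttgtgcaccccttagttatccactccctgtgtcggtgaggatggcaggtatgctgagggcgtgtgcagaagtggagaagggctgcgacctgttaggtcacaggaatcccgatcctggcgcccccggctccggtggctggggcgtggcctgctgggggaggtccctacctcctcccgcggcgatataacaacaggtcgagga
Krt8: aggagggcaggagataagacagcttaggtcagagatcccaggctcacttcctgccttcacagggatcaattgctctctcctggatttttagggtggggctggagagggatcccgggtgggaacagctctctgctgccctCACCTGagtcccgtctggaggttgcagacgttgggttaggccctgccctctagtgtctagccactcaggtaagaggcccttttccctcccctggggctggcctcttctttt
Epcam: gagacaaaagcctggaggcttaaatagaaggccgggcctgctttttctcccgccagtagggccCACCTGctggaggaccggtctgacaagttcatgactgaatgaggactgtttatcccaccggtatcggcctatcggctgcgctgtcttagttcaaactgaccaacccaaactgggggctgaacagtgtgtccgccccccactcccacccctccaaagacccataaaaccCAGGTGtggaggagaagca
Col3a1: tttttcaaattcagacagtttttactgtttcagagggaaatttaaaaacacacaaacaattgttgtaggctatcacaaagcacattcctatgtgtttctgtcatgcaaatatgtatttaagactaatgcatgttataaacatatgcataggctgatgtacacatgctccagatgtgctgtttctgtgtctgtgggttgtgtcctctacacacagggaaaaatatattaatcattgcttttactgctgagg
These letters occurred at 1 place each before Krt18 and Krt8, at 2 places before Epcam and at 0 places before Col3a1. They were in 4620 of 27025 windows of this length over all genes of the RefSeq table (17.1%), in 13 of 26 before junction genes (50.0%), in 7 of 10 before keratins (70.0%), in 2 of 14 before interstitial collagens (14.3%) and in 3 of 25 before proteasome genes (12.0%). Only some members of each list had a window, and Cdh1 had none. The counts are a description of the mouse sequence, and no rat promoter was used here. The keratin list holds genes called higher, genes called lower and Krt8, which was not called. Binding of any repressor at these places was not tested. Krt8 and Krt18 lie beside each other on mouse chromosome 15, at chr15:101996698-102004482 on the minus strand and chr15:102028180-102032027 on the plus strand (GENCODE M21), and the RefSeq starts of both lie inside these GENCODE models.

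Of the 17 keratins, 16 were matched and 13 tested, with 8 higher and 4 lower in TECs and a median log2 difference of 3.76. Krt7, another simple-epithelial keratin, had 1503, 1516 and 1519 CPM in TECs, against 0.284, 0 and 0.580 CPM in NRK49F, with no overlap and a log2 difference of 12.30 (SE 0.217). Krt19, found in ducts and in injured tubules, had 319, 319 and 331 CPM in TECs, against 13.5, 30.9 and 15.4 CPM in NRK49F, so that NRK49F replicate 2 was the highest of its group. Krt20, an injury-associated keratin, averaged 23.1 CPM in TECs and was listed at 0 in NRK49F. The 4 listed keratins that were lower in TECs are those of stratified epithelia and skin, at low levels. The calls did not divide by keratin type, however. Krt4, also of stratified epithelia, was called higher in TECs and was listed at 0 in NRK49F. Krt16, outside the list and looked at after its values were seen, was lower as well, at 0.925 CPM in TECs and 6.61 CPM in NRK49F (log2 difference -2.81, edgeR adjusted p = 3.2e-06), but was 11.02 higher on the log2 scale in TECs with TGF-β. Krt14 had 0.455 ± 0.235 CPM in TECs and 18.7 ± 3.63 CPM in NRK49F, a log2 difference of -5.27 (SE 0.266), and Krt79 had 0.281 ± 0.131 and 7.74 ± 1.38 CPM. Krt15 was highest in NRK49F replicate 2, with 0.315, 0.0834 and 0 CPM in TECs and 1.49, 11.6 and 1.96 CPM in NRK49F. Krt13 had no count in TECs and 1.35, 4.50 and 2.83 CPM in NRK49F. Krt1, Krt5 and Krt10 were too low in both kinds to be tested.

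Regulators of the epithelial state were higher in TECs as well. Of 13 listed, 11 were matched and tested, and all 11 were higher in TECs, with a median log2 difference of 8.72 (7.50 with bounds). Tfcp2l1, a Grainyhead-family factor of the collecting duct, had 342, 340.5 and 340.1 CPM in TECs, against 0.142, 0.0763 and 0.145 CPM in NRK49F, a log2 difference of 11.36 (SE 0.105, edgeR adjusted p = 6.32e-13). Esrp1, the epithelial splicing regulator, had 117, 119 and 115 CPM in TECs, against 1 count over the 3 NRK49F libraries. Grhl2, an activator of junction genes, had 66.7, 69.0 and 70.8 CPM in TECs, against 2 counts in NRK49F, a ratio of 1412 (95% counting interval 391 to 11663). The weakest member was Ovol1, with 2.09 ± 0.261 CPM in TECs and 0.493 ± 0.244 CPM in NRK49F.

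Transcription factors of the nephron lineage were present in TECs at moderate levels. Of 23 listed, 21 were tested, with 14 higher, 1 lower and 6 outside the calls, and a median of 8.56 on the log2 scale (5.26 with bounds). Pax8, which specifies the kidney lineage, had 260.2, 261 and 269 CPM in TECs, against 0.213, 0.763 and 0.362 CPM in NRK49F, a log2 difference of 9.20 (SE 0.143). Every TEC library was far above every NRK49F library. Pax2, Sall1, Emx2 and Lhx1 averaged 50.2, 45.4, 39.7 and 14.4 CPM in TECs and were listed at 0 in all 9 NRK49F libraries. Hnf4a, the driver of proximal tubule maturation, was lower in level than these, with 8.01, 8.26 and 10.6 CPM in TECs, against 0.213, 0.382 and 0.362 CPM in NRK49F. Irx2, Irx3, Gata3, Mecom, Osr2 and Tfap2a were not called, with log2 differences of -1.41 to 1.68. Maf was the member lower in TECs, with 6.90 ± 0.880 CPM in TECs and 28.4 ± 3.52 CPM in NRK49F, and its log2 difference of -2.02 lay at the 4-fold rule: it was -1.95 without NRK49F replicate 2, -1.95 without TEC replicate 1 and -1.99 to -1.94 under 3 other scalings, and it was not called without NRK49F replicate 1 either. Without genes never counted in 1 species, 6 nephron factors in place of 14 were higher.

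Genes of differentiated tubule segments were largely low in TECs. Of 38 proximal tubule genes 15 were too low in both kinds to be tested, among them the phosphate transporter Slc34a1 with 0.189, 0.375 and 0.265 CPM in TECs and 0 counts in NRK49F, the glucose transporter Slc5a2, the organic anion transporter Slc22a6 and the gluconeogenic enzymes Pck1, Fbp1 and G6pc. Of the 23 tested, 16 were higher and 2 lower in TECs, with a median of 3.33. Brush-border and endocytic proteins were among the higher members. Lrp2, the endocytic receptor megalin, had 120.0, 114 and 115 CPM in TECs and was listed at 0 in NRK49F, at least 1580.4-fold higher. Mme, the brush-border peptidase neprilysin, had 224, 225 and 219.5 CPM in TECs, against 2 counts over the NRK49F libraries. Gpx3, a secreted glutathione peroxidase made by the proximal tubule, had 277, 271 and 283 CPM in TECs, against 3 counts. Dpep1, a brush-border dipeptidase, was lower in TECs, with 0.147 ± 0.0544 CPM in TECs and 3.72 ± 0.617 CPM in NRK49F. Aqp1, the water channel, had 11.3, 13.6 and 12.6 CPM in TECs and 33.6, 90.5 and 31.7 CPM in NRK49F, and its log2 difference of -2.04 became -1.37 without NRK49F replicate 2 and -1.98 without TEC replicate 1.

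Of 32 genes of the loop, distal tubule and collecting duct, 12 were too low to be tested, among them Aqp2 with 0, 0.0834 and 0.159 CPM in TECs. The other 20 split into 18 higher and 2 lower in TECs, with a median of 8.42 (5.96 with bounds), and 12 of the 18 were listed at 0 in control NRK49F. Most of the 18 were under 30 CPM in TECs. Scnn1a, the α subunit of the epithelial sodium channel, had 83.4 ± 4.30 CPM in TECs and 2.56 ± 0.611 CPM in NRK49F. Fxyd2, the γ subunit of the sodium pump, averaged 46.8 CPM in TECs, and Umod, uromodulin of the thick ascending limb, had 1.89, 2.67 and 2.81 CPM in TECs, and both were listed at 0 in NRK49F. Wnk4, a kinase regulating distal salt transport, went the other way, with 13.8, 12.5 and 14.2 CPM in TECs, against 128, 126 and 119 CPM in NRK49F, a log2 difference of -3.21 (SE 0.0697, edgeR adjusted p = 4.03e-11). Without genes never counted in 1 species, 10 members in place of 18 were higher.

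Some injury genes were abundant in these unstimulated TECs. Of 20 tubular injury and repair genes 16 were tested, with 7 higher, 1 lower and a median log2 difference of 1.57. Spp1, osteopontin, had 7999, 8171 and 8186 CPM in TECs, against 236, 397 and 229 CPM in NRK49F, a log2 difference of 4.82 (SE 0.253, edgeR adjusted p = 3.13e-06). Havcr1, the proximal tubule injury marker KIM-1, had 1221, 1225 and 1262 CPM in TECs and was listed at 0 in all 9 NRK49F libraries. Lcn2, the iron-carrier-binding protein NGAL, had 727, 754 and 724 CPM in TECs, against 2.28, 3.51 and 1.45 CPM in NRK49F, a log2 difference of 8.26 (SE 0.165). These 3 were far higher in every TEC library than in any NRK49F library. Clu, clusterin, was high in both, with 3998 ± 33.3 CPM in TECs and 3169.8 ± 267 CPM in NRK49F, and Sox9, a factor of tubule repair, had 48.7 ± 1.03 and 32.0 ± 9.49 CPM. Anxa1, an anti-inflammatory annexin, was lower in TECs, with 224 ± 6.69 CPM in TECs and 1332 ± 45.2 CPM in NRK49F, a log2 difference of -2.57 (SE 0.0502).

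Cadherins differed more by member than in sum. Of 19 listed, 13 were tested, with 6 higher and 3 lower in TECs, while the summed level of the list was 2449 to 2503 CPM in TECs and 1875 to 1996 CPM in NRK49F. Beside Cdh1, TECs had Cdh16, the kidney-specific cadherin, at 780.2, 773 and 793 CPM, and Cdh6, a cadherin of the proximal tubule and its precursors, at 125, 126 and 128 CPM, and both were listed at 0 in control NRK49F. Cdh2, N-cadherin, which proximal tubule cells as well as fibroblasts carry, had 259, 266 and 272 CPM in TECs and 105, 125 and 111 CPM in NRK49F. TECs were above NRK49F in every library, by 1.23 on the log2 scale (SE 0.0656), under the 4-fold rule. Cdh11, the classical cadherin of fibroblasts, had 71.9, 74.7 and 76.2 CPM in TECs and 232, 312 and 226 CPM in NRK49F, a log2 difference of -1.79 that also missed the rule. The cadherins called lower in TECs were Cdh13, which lacks a cytoplasmic tail, with 8.64 ± 0.513 CPM in TECs and 399 ± 36.9 CPM in NRK49F, Cdh3, P-cadherin, with 238 ± 5.96 and 1125 ± 34.5 CPM, and Cdh18 with 0.0387 ± 0.0339 and 10.7 ± 2.26 CPM. Per kb of exon, Cdh16 and Cdh1 were at 206 ± 2.67 and 198 ± 1.41 CPM per kb in TECs, against 33.0 ± 0.808 CPM per kb for Cdh2.

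Markers of other kidney cells were present at low levels in TECs. Of 15 endothelial markers 13 were tested, with 9 higher and 0 lower, a median of 6.11 and a summed level of 145 to 147 CPM in TECs and 22.4 to 28.3 CPM in NRK49F. Cdh5, VE-cadherin, had 36.3, 39.9 and 36.6 CPM in TECs, and Emcn, endomucin, had 35.1, 32.2 and 36.4 CPM, and both were listed at 0 in control NRK49F. Pecam1 was not matched between the tables. Of 10 podocyte markers 8 were tested, with 5 higher and 2 lower in TECs and a summed level of 158 to 164 CPM in TECs and 259.9 to 383 CPM in NRK49F. Most of the NRK49F sum was Synpo, the actin-binding protein synaptopodin, with 50.0 ± 0.645 CPM in TECs and 302 ± 65.4 CPM in NRK49F, and the other lower member, Plce1, lay at the 4-fold rule (-2.01, or -1.90 without TEC replicate 2 and -1.98 without NRK49F replicate 1). Nphs1, nephrin of the slit diaphragm, had 0.567, 0.751 and 0.476 CPM in TECs and was too low to be tested. Podxl, a sialomucin shared by podocytes and endothelium, had 70.8 ± 2.54 CPM in TECs and 0.0237 ± 0.0410 CPM in NRK49F. Of 18 macrophage and leukocyte markers 11 were too low to be tested, and 5 of the other 7 were higher and 1 lower in TECs, with a summed level of 66.1 to 67.7 CPM in TECs and 73.2 to 127 CPM in NRK49F. Most of the NRK49F sum was Cd14, with 19.9, 17.5 and 17.5 CPM in TECs and 64.8, 116 and 65.4 CPM in NRK49F, whose log2 difference of -2.17 became -1.84 without NRK49F replicate 2. Without that library 8 members were higher and 0 lower. A higher member was Csf1r, the macrophage growth factor receptor, with 10.7 ± 0.925 CPM in TECs and 0.195 ± 0.0824 CPM in NRK49F. Ptprc, the leukocyte antigen CD45, had 3.28, 3.38 and 3.76 CPM in TECs and 0.142, 0.305 and 0 CPM in NRK49F, and Cd3e, of T cells, had 0 counts in both. The part of such cells in the differences was not tested.

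The collagens of interstitial matrix were mostly lower in TECs. Of 18 interstitial and fibril-associated collagens 16 were matched, since Col1a2 and Col6a3 were not, and 13 were tested: 2 were higher and 9 lower in TECs, with a median log2 difference of -4.28. Their summed level was 501 to 508 CPM in TECs and 15855 to 18777 CPM in NRK49F. Col6a2, a chain of microfibrillar type VI collagen, had 0.756, 0.459 and 0.582 CPM in TECs, against 460.1, 646 and 452 CPM in NRK49F, a log2 difference of -9.79 (SE 0.253, edgeR adjusted p = 7.74e-09). Col14a1, which coats collagen fibrils, had 0.252, 0.375 and 0.318 CPM in TECs, against 82.5, 70.7 and 82.9 CPM in NRK49F, a log2 difference of -7.89 (SE 0.149). For both, every TEC library was under 1 CPM. Col5a1, which starts fibril assembly, had 45.9 ± 2.59 CPM in TECs and 893 ± 67.6 CPM in NRK49F, and Col12a1 had 129 ± 2.19 and 925 ± 168 CPM. Col5a2 and Col5a3 were not called, with 216 and 20.4 CPM in TECs and 818 and 31.5 CPM in NRK49F. The collagens higher in TECs were low in level: Col27a1 with 18.1 ± 2.14 CPM in TECs and 2.62 ± 1.64 CPM in NRK49F, and Col15a1 with 2.78 ± 0.240 and 0.144 ± 0.145 CPM.

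Basement membrane genes leaned the other way. Of 28 listed, 25 were tested, with 13 higher and 2 lower in TECs, and a median of 2.14. The chains of the kidney's specialised type IV collagen network stood out within the group. Col4a3 had 373, 367 and 362 CPM in TECs, against 0, 0 and 0.362 CPM in NRK49F, a log2 difference of 11.47 (SE 0.231). Col4a4 had 267, 269 and 276 CPM in TECs, against 0.142, 0.382 and 0.0725 CPM in NRK49F, a log2 difference of 10.38 (SE 0.145). Their partner chain Col4a5 was not called, with 181 ± 1.71 CPM in TECs and 135 ± 8.60 CPM in NRK49F, and the ubiquitous chain Col4a1 had 1438 ± 20.3 and 515 ± 17.8 CPM, a log2 difference of 1.48. Npnt, nephronectin, an integrin ligand of kidney development, averaged 330.4 CPM in TECs and was listed at 0 in all 9 NRK49F libraries. Agrn, agrin, had 1338 ± 19.7 CPM in TECs and 50.7 ± 0.970 CPM in NRK49F, and Lamb3, a chain of an epithelial laminin, had 265 CPM in TECs, against 6.82 CPM in NRK49F. Lamb2, a laminin chain of kidney and muscle basement membranes, was lower in TECs, with 94.1 ± 3.15 CPM in TECs and 613 ± 28.0 CPM in NRK49F, a log2 difference of -2.70 (SE 0.0549).

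**Figure D3:**
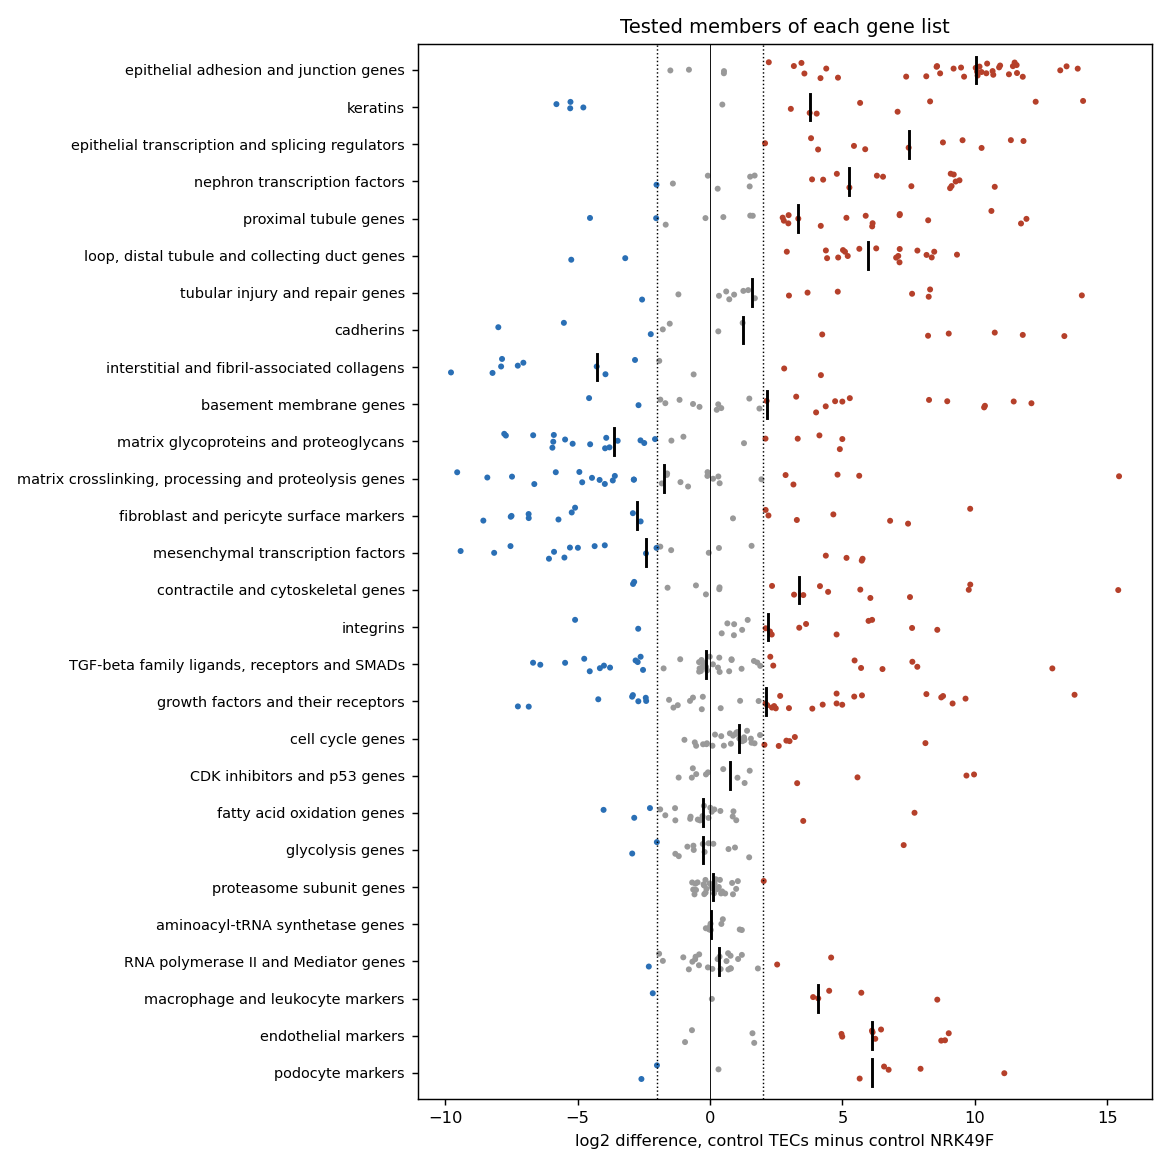
Log2 difference, control TECs minus control NRK49F, of each tested member of 28 gene lists; genes without counts in 1 kind are drawn at their bounds, black bars are list medians, dotted lines the 4-fold rule, and red or blue points are called higher or lower. Junction genes sit at the right with a median of 10.03, interstitial collagens at the left with a median of -4.28, and proteasome genes around 0.

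Matrix glycoproteins and proteoglycans, 24 tested of 34, were mostly lower in TECs: 16 lower and 5 higher, with a median of -3.65. Bgn, the proteoglycan biglycan, had 24.9, 25.3 and 26.9 CPM in TECs, against 5522, 6052 and 5332 CPM in NRK49F, a log2 difference of -7.78 (SE 0.0782, edgeR adjusted p = 6.9e-13). Vcan, versican, had 20.7 ± 0.646 CPM in TECs and 1243 ± 89.4 CPM in NRK49F, Fbn1, the microfibril protein fibrillin-1, had 33.3 ± 1.59 and 770.1 ± 17.2 CPM, and Fbln5, of elastic fibres, had 5.33 ± 0.524 and 323 ± 26.3 CPM. Fn1, fibronectin, was abundant in both kinds, with 3588, 3505 and 3639.6 CPM in TECs and 9372, 11169.9 and 9027 CPM in NRK49F. Its log2 difference of -1.46 was under the 4-fold rule, although no TEC library reached the NRK49F level. Dcn, decorin, often used as a fibroblast marker, was too low in both kinds to be tested, with 0.189, 0.250 and 0.0529 CPM in TECs and 0.355, 0.534 and 0.290 CPM in NRK49F. Postn, periostin, was low as well, with 2.38 ± 0.478 CPM in TECs and 14.5 ± 1.48 CPM in NRK49F. The members higher in TECs included Tnc, tenascin-C of wounds, with 696 ± 18.4 CPM in TECs and 70.3 ± 23.5 CPM in NRK49F, and Igfbp7 with 345 ± 12.4 and 19.7 ± 1.07 CPM.

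Of 32 genes of matrix crosslinking, processing and proteolysis 30 were tested, with 5 higher and 14 lower in TECs and a median of -1.73. Collagen-modifying enzymes made up most of the lower group. Lox, lysyl oxidase, which crosslinks collagen and elastin, had 54.9, 56.2 and 56.3 CPM in TECs, against 1412, 1935 and 1422 CPM in NRK49F, a log2 difference of -4.83 (SE 0.139). P4ha3, a collagen prolyl hydroxylase subunit, had 0.368 ± 0.0510 CPM in TECs and 130.5 ± 23.1 CPM in NRK49F, and Fkbp10, a collagen-folding prolyl isomerase, had 13.4 ± 0.467 and 761 ± 55.8 CPM. The higher group included a plasminogen activator and a transglutaminase. Plau, urokinase, had 2489, 2542 and 2522 CPM in TECs, against 2 counts over the 3 NRK49F libraries, a ratio of 51641 (95% counting interval 14295 to 426421). Tgm2, tissue transglutaminase, had 252 ± 6.15 CPM in TECs and 5.10 ± 2.20 CPM in NRK49F. The lysyl oxidase relatives Loxl2 and Loxl4 and the membrane protease Mmp14 lay near equality, with log2 differences of -0.10, 0.11 and -0.10.

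Fibroblast and pericyte surface markers split by marker. Of 22 listed, 18 were tested, with 7 higher and 10 lower in TECs and a median of -2.77. Pdgfra, the PDGF receptor of interstitial fibroblasts, had 4.54, 3.84 and 2.65 CPM in TECs, against 394, 481 and 391 CPM in NRK49F, a log2 difference of -6.85 (SE 0.161, edgeR adjusted p = 1.16e-09). Pdgfrb, the receptor of pericytes and fibroblasts, had 18.9, 19.8 and 19.2 CPM in TECs, against 146, 138 and 154 CPM in NRK49F, a log2 difference of -2.92 (SE 0.0634). S100a4, known as fibroblast-specific protein 1, had 6.50 ± 0.829 CPM in TECs and 758 ± 141 CPM in NRK49F, and the endocytic receptors Lrp1 and Mrc2 had 33.9 and 3.97 CPM in TECs, against 6269 and 718 CPM in NRK49F. Pi16, a marker of adventitial fibroblasts, had 19.2, 17.7 and 21.1 CPM in NRK49F and no count in TECs. Other classical markers were not found in NRK49F at levels that could be tested. Thy1, the surface glycoprotein CD90, had 0.693, 0.375 and 0.900 CPM in TECs and 0, 0 and 0.0725 CPM in NRK49F, and Fap, fibroblast activation protein, had 1 count in each kind. The 7 higher in TECs included pericyte markers, Mcam with 73.2 ± 2.57 CPM in TECs and 0.0725 ± 0.126 CPM in NRK49F and Cspg4, NG2, with 42.1 ± 1.25 and 1.66 ± 0.436 CPM, and Nt5e, the ectonucleotidase CD73, with 62.2 ± 1.43 and 0.347 ± 0.239 CPM.

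Transcription factors of mesenchyme were lower in TECs in 12 of the 21 tested (of 28 listed), with 4 higher and a median of -2.42. Tbx18, a factor of ureteric mesenchyme and mural cells, had 0.0630, 0.0834 and 0.159 CPM in TECs, against 73.2, 85.0 and 68.1 CPM in NRK49F, a log2 difference of -9.42 (SE 0.201). Prrx1 and Prrx2, homeobox factors of mesenchyme, averaged 0.420 and 0.199 CPM in TECs, against 80.6 and 65.2 CPM in NRK49F. Snai2, the E-cadherin repressor Slug, had 1.26, 1.25 and 1.53 CPM in TECs, against 54.5, 76.1 and 53.8 CPM in NRK49F, a log2 difference of -5.50 (SE 0.197). Snai1 and Twist1, which likewise repress epithelial genes, had 0.515 ± 0.0624 and 0.855 ± 0.0858 CPM in TECs, against 20.4 ± 3.88 and 27.4 ± 0.812 CPM in NRK49F. The ZEB repressors differed less: Zeb1 had 16.7, 18.1 and 18.2 CPM in TECs and 63.3, 62.9 and 69.6 CPM in NRK49F, a log2 difference of -1.88 that missed the 4-fold rule, and Zeb2 had 32.1 ± 3.22 and 171 ± 9.56 CPM, a difference of -2.42. Foxc1 and Tcf4 were about equal, with 26.7 and 38.1 CPM in TECs and 27.7 and 30.2 CPM in NRK49F. The 4 higher in TECs were Heyl, a Notch target, Foxd1, a factor of stromal progenitors, Foxs1 and Meox1, at 4.08, 2.58, 1.68 and 1.51 CPM in TECs with at most 1 count in control NRK49F, and 2 of them were left without genes never counted in 1 species.

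Contractile genes, often used as myofibroblast markers, were mostly higher in the epithelial cells. Of 18 contractile and cytoskeletal genes, all tested, 11 were higher and 2 lower in TECs, with a median of 3.35. Acta2, smooth muscle α-actin, had 227, 228 and 239 CPM in TECs, against 2.49, 8.09 and 3.19 CPM in NRK49F, a log2 difference of 5.67 (SE 0.300, edgeR adjusted p = 2.29e-06). Tagln, the actin-binding protein SM22, had 293, 281 and 277 CPM in TECs, against 0.0711, 0.611 and 0.290 CPM in NRK49F, a log2 difference of 9.77 (SE 0.170, edgeR adjusted p = 1.46e-11). The groups did not overlap for either, and NRK49F replicate 2 was the highest of its group for both. Cnn1, calponin of smooth muscle, had 28.8, 27.4 and 30.9 CPM in TECs, against 1 count in NRK49F, and Myl9, a myosin light chain, had 19.7 ± 0.680 and 0.0966 ± 0.167 CPM. Nes, the intermediate filament nestin, had 525 ± 16.0 CPM in TECs and 7.90 ± 0.748 CPM in NRK49F, and Tpm1, a tropomyosin, had 2643 ± 15.1 and 293 ± 51.8 CPM. Myh9, non-muscle myosin IIA, had 3237, 3181 and 3207 CPM in TECs and was listed at 0 in the control NRK49F libraries, with 89 counts over all 9, a pattern that the rat annotation could give and that was not tested. Its relative Myh10 had 398 ± 11.3 CPM in TECs and 311 ± 5.00 CPM in NRK49F.

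The 2 members lower in TECs were a filament protein and a tropomyosin. Vim, vimentin, the filament of mesenchymal cells that cultured epithelia also make, had 493, 494 and 483 CPM in TECs, against 3369, 3897 and 3463 CPM in NRK49F, a log2 difference of -2.87 (SE 0.0631, edgeR adjusted p = 4.29e-11). Tpm2, another tropomyosin, had 60.0 ± 1.80 CPM in TECs and 451 ± 5.80 CPM in NRK49F, a difference of -2.91. Flna, the actin crosslinker filamin A, and Cald1, caldesmon, were near equality at -0.16 and 0.35. Acta2 and Actg2 encode nearly identical actins and their reads could be shared between them.

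Integrins are the receptors that tie cells to matrix. Of 20 listed, 18 were tested, with 10 higher and 2 lower in TECs and a median of 2.18. Itgb6, the epithelial subunit of αvβ6 that activates latent TGF-β, had 172, 179 and 176 CPM in TECs, against 0.782, 1.37 and 0.507 CPM in NRK49F, a log2 difference of 7.63 (SE 0.141). Itga3, of a laminin receptor, had 2037 ± 42.4 CPM in TECs and 425 ± 46.3 CPM in NRK49F, and Itga2, of a collagen receptor, had 139.6 ± 5.95 and 2.20 ± 0.433 CPM. Itga11, a fibroblast receptor for fibrillar collagen, was lower in TECs, with 4.03, 4.13 and 4.60 CPM in TECs and 139, 153 and 147 CPM in NRK49F, a log2 difference of -5.10 (SE 0.0795). Itga5, of the fibronectin receptor, was lower as well, with 80.0 ± 1.03 CPM in TECs and 526 ± 20.4 CPM in NRK49F. The shared subunit Itgb1 had 2414 ± 19.1 and 902 ± 148 CPM, under the 4-fold rule.

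TGF-β signals through the receptors Tgfbr1 and Tgfbr2 to Smad2, Smad3 and Smad4, and each of these genes differed by less than 4-fold between the kinds, while some genes of ligand storage, co-receptors and antagonists were called. Of 45 family genes 44 were tested, with 8 higher and 12 lower in TECs and a median log2 difference of -0.17. Among ligands, Tgfb1 had 40.7, 36.7 and 39.4 CPM in TECs and 46.0, 63.1 and 46.7 CPM in NRK49F, a log2 difference of -0.42 (SE 0.118), and Tgfb2 had 48.5 ± 1.76 and 106 ± 2.16 CPM, a difference of -1.13. Tgfb3 was called lower, with 18.7 ± 2.13 CPM in TECs and 109 ± 12.8 CPM in NRK49F, a difference of -2.53 (SE 0.105). Gdf15, a stress-induced member of the family, had 249, 246 and 252 CPM in TECs, against 1 count in NRK49F. Bmp7, the kidney's own BMP, had 14.6, 14.8 and 14.4 CPM in TECs and was listed at 0 in NRK49F, while Bmp2 had 6.39 ± 0.636 CPM in TECs and 171 ± 16.3 CPM in NRK49F.

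Genes of the LTBP family, named for latent TGF-β binding proteins, were lower in TECs in 3 of 4 cases. Ltbp4 had 7.12, 5.67 and 6.62 CPM in TECs, against 666, 653 and 665 CPM in NRK49F, a log2 difference of -6.69 (SE 0.0791, edgeR adjusted p = 1.33e-12). Ltbp2 and Ltbp3 averaged 29.8 and 84.3 CPM in TECs, against 535 and 593 CPM in NRK49F, while Ltbp1 had 166 ± 3.38 and 204 ± 39.0 CPM. Of the receptors, Tgfbr1 had 95.3, 103 and 99.2 CPM in TECs and 79.6, 76.4 and 77.8 CPM in NRK49F, and Tgfbr2 had 483, 489 and 474 CPM in TECs and 156, 148 and 155 CPM in NRK49F. TEC libraries were above NRK49F for both, with log2 differences of 0.35 and 1.66, under the 4-fold rule. The co-receptor Tgfbr3, betaglycan, was lower in TECs, with 13.6, 13.2 and 11.8 CPM in TECs, against 180.3, 172 and 177 CPM in NRK49F, a log2 difference of -3.78 (SE 0.0663), and Eng, endoglin, had 23.9 ± 1.95 and 147 ± 14.3 CPM.

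The signal carriers Smad2 and Smad3 had 155 and 329 CPM in TECs and 94.0 and 187 CPM in NRK49F, and their partner Smad4 had 119.9 ± 0.936 CPM in TECs and 111 ± 6.67 CPM in NRK49F (log2 difference 0.11, SE 0.0555, edgeR adjusted p = 0.0920). The inhibitor Smad7 had 34.6 ± 0.922 and 43.4 ± 6.29 CPM, whereas the BMP-pathway inhibitor Smad6 was lower in TECs, with 7.38 ± 0.338 CPM in TECs and 49.1 ± 2.93 CPM in NRK49F. Skil, the corepressor SnoN, was higher in TECs, with 157 ± 1.92 CPM in TECs and 32.5 ± 1.18 CPM in NRK49F. Secreted antagonists divided between the kinds. Grem1, a BMP antagonist, had 4.85, 4.38 and 4.18 CPM in TECs, against 332, 474 and 335 CPM in NRK49F, a log2 difference of -6.41 (SE 0.194), and Chrd, chordin, had 0.429 ± 0.374 and 18.6 ± 1.99 CPM. Fst, the activin antagonist follistatin, was higher in TECs, with 254 ± 1.79 CPM in TECs and 2.77 ± 0.558 CPM in NRK49F, and Nog, noggin, had 3.78 ± 0.682 CPM in TECs and was listed at 0 in NRK49F.

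**Figure D4:**
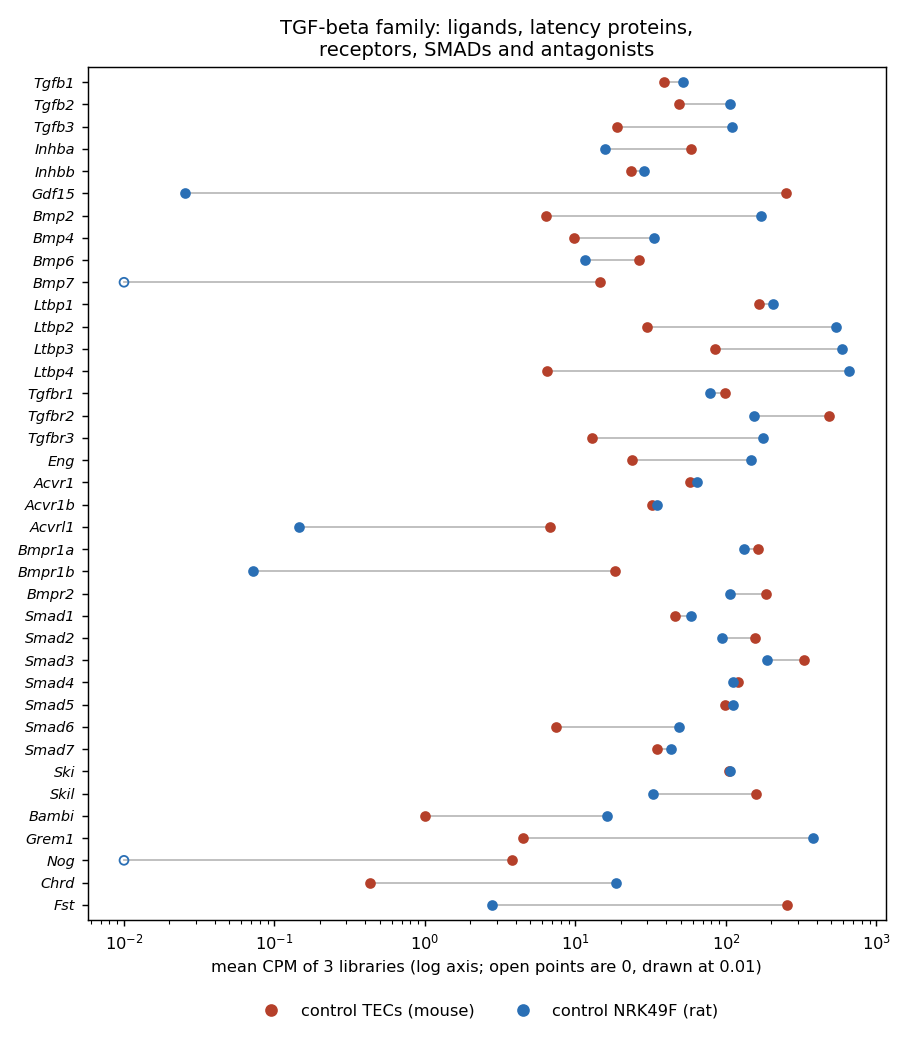
Mean CPM of 38 TGF-β family genes in control TECs (mouse, red) and control NRK49F (rat, blue), n = 3 libraries each, on a log axis; open points are 0 and drawn at 0.01, and the grey line joins the kinds. Most receptors and SMADs lie close together, while Ltbp4 (6.47 against 661 CPM), Grem1 (4.47 against 380 CPM) and Gdf15 (249 against 0.0254 CPM) lie far apart.

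Growth factors and receptors of other families gave 20 higher and 8 lower in TECs among 38 tested of 41, with a median of 2.13. The ligand gene Pdgfb and its receptor genes lay on opposite sides. Pdgfb, the PDGF-B chain, had 447, 432 and 456 CPM in TECs, against 1 count in NRK49F, a ratio of 18184 (95% counting interval 3263 to 718242), whereas its receptors Pdgfra and Pdgfrb were lower in TECs as given above. Fgf7, the keratinocyte growth factor made by mesenchyme, had 0.378, 0.792 and 0.265 CPM in TECs, against 78.3, 81.5 and 78.0 CPM in NRK49F, a log2 difference of -7.26 (SE 0.168), while its receptor gene Fgfr2 had 54.5 ± 1.18 and 92.2 ± 10.5 CPM and was not called. Egfr, the EGF receptor, had 435, 442 and 439.7 CPM in TECs, against 10.5, 13.4 and 6.38 CPM in NRK49F, a log2 difference of 5.44 (SE 0.197), and its ligands Hbegf and Tgfa averaged 159.8 and 55.9 CPM in TECs, against 20.3 and 10.4 CPM in NRK49F. Vegfc, a lymphatic growth factor, was lower in TECs, with 5.11 ± 0.213 CPM in TECs and 96.1 ± 5.38 CPM in NRK49F. Fgfr1, a receptor known from fibroblasts, had 84.4 ± 0.803 CPM in TECs and 0.0987 ± 0.0467 CPM in NRK49F, with 55 counts over all 9 NRK49F libraries.

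Both kinds carried cell cycle RNA after serum withdrawal. Of 33 cell cycle genes tested, 6 were higher and 0 lower in TECs, where the background was 21.0% and 9.93%, with a median of 1.11. Mki67, the proliferation marker Ki-67, had 474, 478 and 487 CPM in TECs and 678, 377 and 674 CPM in NRK49F. The TEC libraries fell between those of NRK49F, of which replicate 2 was lowest, and the log2 difference was -0.27 (SE 0.228, edgeR adjusted p = 0.306). The genes higher in TECs included Ccne1, cyclin E1 of S-phase entry, with 23.1, 23.8 and 24.3 CPM in TECs and 2.56, 3.97 and 2.39 CPM in NRK49F, the kinase gene Cdk6 with 228 ± 3.08 and 24.8 ± 2.18 CPM, and the replication factors Mcm5, Mcm3 and Cdc6 with 95.3, 134 and 36.7 CPM in TECs and 13.0, 32.4 and 6.08 CPM in NRK49F. Of 14 CDK inhibitor and p53 genes tested, 4 were higher and 0 lower. Cdkn2b and Cdkn1c, the inhibitors p15 and p57, averaged 32.0 and 26.2 CPM in TECs, with 1 count each in NRK49F. Cdkn1a, the inhibitor p21, had 262 ± 4.54 CPM in TECs and 277 ± 20.2 CPM in NRK49F (log2 difference -0.08, SE 0.0581, edgeR adjusted p = 0.214).

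Most energy metabolism genes differed by less than 4-fold. Of 23 fatty acid oxidation genes tested, 2 were higher and 3 lower in TECs, with a median of -0.29. Cpt1a, the carnitine transferase that admits fatty acids to mitochondria, had 37.0, 38.6 and 40.6 CPM in TECs, against 621, 643 and 629 CPM in NRK49F, a log2 difference of -4.02 (SE 0.0553, edgeR adjusted p = 2.57e-12). Ppara, the receptor that activates this pathway, had 0.567 ± 0.226 CPM in TECs and 4.38 ± 1.49 CPM in NRK49F, while its coactivator gene Ppargc1a was higher in TECs at 9.29 ± 0.686 and 0.799 ± 0.486 CPM. Of 15 glycolysis genes tested, 1 was higher and 2 lower, with a median of -0.28. The lactate carriers went opposite ways: Slc16a3, MCT4, had 32.2 ± 2.34 CPM in TECs and 0.194 ± 0.209 CPM in NRK49F, and Slc16a1, MCT1, had 70.7 ± 1.85 and 285 ± 24.4 CPM, a difference of -2.01 that lay between -1.99 and -1.93 under the 4 other scalings tried, and that was -1.98 without TEC replicate 2, -1.99 without NRK49F replicate 1 and -1.96 without NRK49F replicate 3. Pfkm, the muscle phosphofructokinase, was lower in TECs, with 20.0 ± 1.00 CPM in TECs and 154 ± 14.3 CPM in NRK49F. In the lists of genes that every cell uses, 1 of 30 proteasome genes was called (Psmd8, log2 difference 2.03, or 1.98 without NRK49F replicate 2), 0 of 9 aminoacyl-tRNA synthetase genes (-0.16 for Farsb to 1.20 for Aars) and 3 of 26 polymerase II and Mediator genes, 2 higher and 1 lower (2 lower without NRK49F replicate 2). By the p alone, 26, 4 and 23 of these differed.

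Ranked over all genes rather than by list, the largest fitted differences included further epithelial and mesenchymal genes. Among genes with at least 10 CPM in the higher kind and at least 10 counts in the lower, the 10 highest in TECs were Krt7, Cdh1, Cgnl1, Fgd3, Cd9, Mal2, Prom1, Tagln, Sfn and Wnt7b, with log2 differences of 12.30 to 9.64. Mal2, of apical transport, and Prom1, prominin of membrane protrusions and tubular progenitors, had 456 ± 3.46 and 315 ± 5.46 CPM in TECs, against 0.369 ± 0.159 and 0.294 ± 0.0752 CPM in NRK49F. Sfn, the epithelial 14-3-3 protein stratifin, had 355 ± 5.90 CPM in TECs and 0.420 ± 0.199 CPM in NRK49F. Wnt7b, a ligand of collecting duct development, had 302, 294 and 297 CPM in TECs, against 0.284, 0.687 and 0.145 CPM in NRK49F. The 10 lowest were Dhrs9, Aox1, Col6a2, C1qtnf5, Ccn5, A3galt2, Mmp19, Gli2, Atoh8 and Rhox5, with log2 differences of -10.28 to -8.88. Gli2, a Hedgehog transcription factor of mesenchyme, had 0.189, 0.292 and 0.106 CPM in TECs, against 114, 124 and 107 CPM in NRK49F. Dhrs9, a retinol dehydrogenase, had 0.267 ± 0.0863 CPM in TECs and 328 ± 27.6 CPM in NRK49F, and Aox1, aldehyde oxidase, had 0.328 ± 0.202 and 328 ± 18.3 CPM.

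Of genes almost without counts in the lower kind, the most abundant in TECs were Myh9, Plau, Peg3, Cdh16 and Wwc1, and the most abundant in NRK49F were Scara5, Srpx, Cd200r1, Ppp1r3c and Tnfaip8l3. Peg3, an imprinted gene, averaged 899.9 CPM in TECs and was listed at 0 in control NRK49F, and Wwc1, the Hippo pathway protein KIBRA, averaged 630.1 CPM with 1 count in NRK49F. Scara5, a ferritin receptor of adventitial fibroblasts, had 329.9, 345 and 331 CPM in NRK49F, with 3 counts over the 3 TEC libraries, a ratio of 6556 (95% counting interval 2243 to 31794). Srpx had 154, 263 and 159 CPM in NRK49F, with replicate 2 the highest, and 1 count in TECs.

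The same comparison was made in the 6 libraries given TGF-β1, which share no library with the control comparison. There, 2335 of 11662 tested genes (20.0%) were higher and 1225 (10.5%) lower in TECs, 30.5% in either direction. Of the control calls, 2604 of 3610 (72.1%) were called the same way with TGF-β. Both comparisons use the same cell kinds, species and annotations, so a difference that comes from species or annotation can enter both. The shared higher genes, 1865, were 76.2% of the control calls and 79.9% of the TGF-β calls, and the shared lower genes, 739, were 63.7% and 60.3%. Opposite calls were made for 15 genes, 11 that were higher in control TECs and 4 that were lower. Junction genes kept their side in 34 of 35 cases and interstitial collagens called lower in 8 of 9. Cdh1 differed by 11.10 on the log2 scale with TGF-β, against 11.81 in control libraries, Col1a1 by -6.95, against -7.86, and Col3a1 by -9.86, against -8.22.

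Of the 11 contractile genes that were higher in control TECs, 6 were also higher with TGF-β, and both that were lower in control TECs were also lower. Of the 16 proximal tubule genes that were higher in control TECs, 8 were also higher with TGF-β. Whether these shares differ from that over all genes was not tested. Acta2 differed by 0.55 with TGF-β, against 5.67 in control libraries, and Tagln by 2.89, against 9.77. Both genes were higher with TGF-β than in control libraries in each kind, on 1 scaling of all 18 libraries. Acta2 averaged 220 CPM in control and 349 CPM in TGF-β TECs, against 4.29 and 239 CPM in NRK49F. For Tagln these means were 270 and 450 CPM in TECs, against 0.303 and 60.5 CPM in NRK49F. The interaction of cell kind and TGF-β was tested between the control and TGF-β groups in 1 edgeR fit of all 18 libraries. It was past an adjusted p of 0.05 in 7473 of 12161 genes (61.5%), so it too separates few genes. It was -5.15 for Acta2 (edgeR adjusted p = 2.16e-09) and -6.90 for Tagln (edgeR adjusted p = 4.18e-09) on the log2 scale. Of 33 cell cycle genes, 20 were lower and 2 higher in TECs with TGF-β, against 0 lower and 6 higher in control libraries. Mki67 differed by -3.23 with TGF-β, against -0.27 without, with an interaction of -2.99 (edgeR adjusted p = 1.37e-07).

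**Figure D5:**
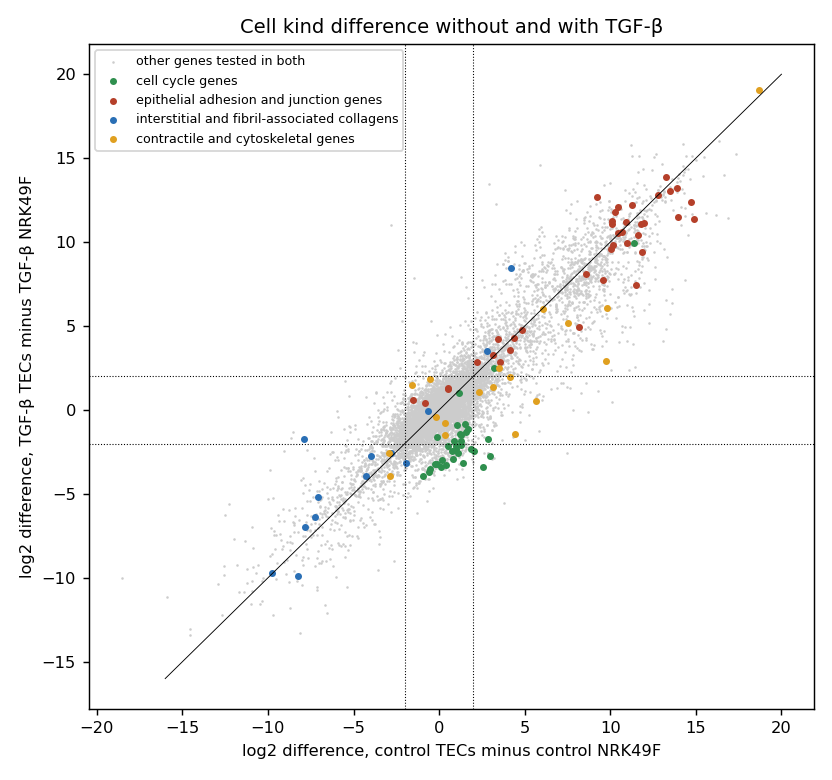
Fitted log2 difference, TECs minus NRK49F, of each gene tested in both comparisons, in control libraries (horizontal) and in TGF-β libraries (vertical); the solid line marks equal differences and the dotted lines the 4-fold rule, and values of genes without counts in 1 kind depend on the fit. Junction genes (red) and interstitial collagens (blue) mostly lie near the solid line, cell cycle genes (green) mostly below it, with Mki67 at -0.27 in control and -3.23 in TGF-β libraries.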

How the data were processed

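RNA-seq libraries of mouse TECs and rat NRK49F came as raw gene counts per library, deposited by the authors in separate mouse and rat tables. HISAT2 2.1.0, featureCounts, DESeq2 and the mouse build mm10 are named, without roles, in the submitters' processing notes; the rat build is not given in the sources used here. Genes were matched by upper-cased symbol where it occurred exactly once in each table. The 6 control libraries were fitted with edgeR 4.0.16 in R 4.3.3, with the quasi-likelihood test (robust), TMM factors and totals over matched genes, the filterByExpr filter and Benjamini-Hochberg adjustment over all 11687 tested genes. A call needed an adjusted p under 0.05 and a log2 difference of at least 2. CPM use the same scaling. No length correction between species was made, so a change in counted transcript length between the annotations enters each difference. A total of 14818642 to 25192716 counts per library lets 3 counts over a group set a floor of 0.0511 CPM in TECs and 0.0732 CPM in NRK49F. The fits were tested on simulated counts.

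The 28 gene lists (686 genes) and the preset genes were chosen with earlier results of these data known. The text names preset genes, the 10 genes each way with the largest fitted differences (at least 10 CPM in the higher kind, at least 10 counts in the lower), the 5 each way with the highest CPM and at most 3 counts in the lower kind, up to 4 called members each way of every list, and the lowest and highest of the genes that every cell uses. Other named genes were chosen after their values were seen, and some genes that the rule names are not reported here. Same-numbered libraries of the kinds did not deviate together (correlations of -0.00697, 0.00217 and 0.00433), so the numbers were not used as pairs. No per-sample column was left unused. Mouse coordinates are GENCODE M21 on GRCm38, and promoter sequences are RefSeq GRCm38.p6; no rat genome was used here. The alternatives were DESeq2 1.42.0, limma 3.58.1 (voom), other scalings and filters, all 18 libraries, a replicate block, each library left out and the 2 alternatives added after seeing the data.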

Additional observations from a re-analysis of the deposited data

Results flagged for a closer look

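Among the 15 genes with opposite calls in control and TGF-β1 libraries, 11 were higher in control TECs and lower in TECs given TGF-β1, each with NRK49F under the same treatment as the other side. They included Ccne1, cyclin E1, and the DNA replication genes Cdc6, Mcm3 and Orc1, of which Orc1, of the origin recognition complex, is in no list here (log2 difference -2.55 with TGF-β and 2.88 in control libraries, interaction -5.45, edgeR adjusted p = 5.19e-19). For Ccne1 the log2 difference was -2.74 with TGF-β, against 23.1, 23.8 and 24.3 CPM in TECs and 2.56, 3.97 and 2.39 CPM in NRK49F in control libraries, and the interaction of cell kind and TGF-β was -5.76 (edgeR adjusted p = 1.35e-20). For Cdc6, which loads the replicative helicase, the differences were -3.40 with TGF-β and 2.59 in control libraries, with an interaction of -6.02 (edgeR adjusted p = 1.74e-22). For Mcm3, a subunit of that helicase, they were -2.45 with TGF-β and 2.05 in control libraries, with an interaction of -4.52 (edgeR adjusted p = 3.31e-25). Ccne1, Cdc6 and Mcm3 were each higher in all 3 control TEC libraries than in any control NRK49F library.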

How the results depend on the processing

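No result reversed under any alternative run. With a 2-fold rule in place of the 4-fold rule, a log2 difference of at least 1, 3708 genes were higher and 2462 lower in TECs. Leaving out each control library in turn gave 2467 to 2611 genes higher, 1156 to 1215 lower and 10074 to 10849 past the adjusted p alone. Over the other alternatives these counts ran over 2000 to 3708, 1018 to 2462 and 9859 to 11314. The share of control calls made the same way with TGF-β was 74.4% without a filter on low counts, 78.3% with all 18 libraries in 1 fit, 75.7% with the libraries given TGF-β and narciclasine (added after seeing the data), and 70.2% to 74.0% with each library left out in turn. The cause of these shifts was not tested. With the replicate block, 2449 genes were higher, 1160 lower and 10206 past the adjusted p alone, and 72.0% were called the same way with TGF-β. The block ended the call of Aqp1 (-1.93) among named genes. Of 196 named genes, 7 left their call under 1 or more alternatives, namely Aqp1, Cd14, Krt15, Maf, Plce1, Psmd8 and Slc16a1, all but Krt15 with a log2 difference close to 2 in size. Of the values that the list counts took over the alternatives, 62 moved by more than 1.5 times and 1058 did not. The 62 came from 22 of the 56 list counts. An offset for exon length in both species was not run, because no rat annotation was used here. Counts of 0 in NRK49F limit what can be said of genes also at 0 in all 9 rat libraries.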

Other observations

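Hox genes, which mark the position of a cell's origin along the body axis, were looked at after their values were seen. Of 33 matched, 27 were tested, 11 were higher and 3 lower in TECs, where the background was 21.0% and 9.93%. The lower count is near its background. The 3 lower were all of paralogue group 13, the most posterior: Hoxd13 had 0, 0.0417 and 0 CPM in TECs and 19.6, 20.8 and 21.6 CPM in NRK49F, Hoxa13 had no count in TECs and 6.33, 6.26 and 6.38 CPM in NRK49F, and Hoxb13 had 0, 0.0834 and 0 CPM in TECs and 5.05, 4.96 and 4.06 CPM in NRK49F. Hoxb9 was the most abundant in TECs, with 175, 183 and 188 CPM in TECs and 19.0, 22.4 and 21.7 CPM in NRK49F, a log2 difference of 3.12. Hoxd8 had 41.0, 42.2 and 41.1 CPM in TECs and 0.0711, 0.229 and 0.290 CPM in NRK49F. Hoxb7 was about equal, with 41.5, 44.4 and 44.8 CPM in TECs and 53.1, 51.5 and 47.8 CPM in NRK49F.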
